A study of Mus musculus with 23 samples.

Results

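The genes described here are 8 gap junction connexins of the mouse, *Gja1*, *Gja4*, *Gjb1*, *Gjb2*, *Gjb5*, *Gjb6*, *Gjc1* and *Gjc3*, out of 35576 genes in all and 20 connexin genes in the files. They were chosen from their levels in these same libraries, so their levels and line differences are a description and carry no test. The tests below are for genes outside that choice: the other 12 connexins, 3 pannexins and 14 proteins known to bind, traffic or modify connexins. These lists were also drawn up with earlier results of these data known, so their tests are not fully independent of the data. Connexins are membrane-spanning proteins that assemble into rings, and the rings of neighboring cells dock into channels that pass ions and small metabolites. In the brain, astrocytes are coupled mainly by the products of *Gja1* (Cx43) and *Gjb6* (Cx30), and oligodendrocytes are known for *Gjb1* (Cx32) and *Gjc3* (Cx29). The genes *Gja4* (Cx37) and *Gja5* (Cx40) are known from endothelium, *Gjc1* (Cx45) from vascular smooth muscle and the cardiac conduction system, *Gjb2* (Cx26) from cochlea, skin and leptomeninges, and *Gjb5* (Cx31.1) from epidermis.

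RNA sequencing covered 23 tumors of the murine glioma lines CT2A and GL261, grown in the striatum of young adult female albino C57BL/6 mice. The groups were 4 bulk *ex vivo* CT2A-luc tumors and 4 bulk GL261-luc2 tumors, 5 CT2A and 3 GL261 tumors raised from neurosphere cultures of tagged sublines, and 3 CT2A and 4 GL261 tumors raised from adherent cultures of tagged sublines. Every line carried firefly luciferase, and the tagged sublines also carried a surface tag, by which tumor cells of the neurosphere and adherent groups were magnetically selected before RNA extraction. The labels name no treatment for any group. More GL261-luc2 than CT2A-luc cells were implanted for the bulk tumors, and bulk and selected libraries also differed in subline, read length and sequencer, so that they are set side by side here without a test. The 5 neurosphere libraries taken as CT2A carry a GL261 title but a CT2A cell line label, and their genes followed the cell line label: *Hoxc10* was at 61.2 to 83.4 CPM (read counts scaled to library size, TMM-normalized over all libraries), against 3.16 to 7.43 CPM in GL261 neurosphere libraries, and *Dppa4* was at 0 CPM in all 5, against 17.1 to 21.6 CPM.

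Libraries held 7384590 to 42590802 reads assigned to genes, and those of GL261 bulk tumors, at 34597135 or more, were the deepest. Selected cells were not free of other cells: the 8 macrophage and microglia markers summed to 4081 to 6632 CPM in GL261 neurosphere libraries and to 178 to 2451 CPM in the other selected libraries. A few libraries stood apart from their groups. CT2A neurosphere replicate 59 had the highest macrophage sum of its group, 2451 CPM against at most 1141 CPM in its fellows. GL261 adherent replicate 81 had the lowest of its group, 178 CPM, where its fellows held at least 502 CPM. In GL261 bulk tumors, replicate 405 had the lowest and replicate 412 the highest sum of the 6 astrocyte markers, 549 and 3005 CPM.

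Sequences are shown for the start regions of 3 members: *Gjc3* and *Gjb1*, the oligodendrocyte connexins that separated the lines in every pair, and *Gja1*, the leading connexin of CT2A. Of the 8 members, 7 had a start region in RefSeq (GRCm38.p6). Each run below is the 250 bases before a start, written in the direction of transcription. Capitals mark matches on either strand to the core letters of SOX sites, which were searched as ACAAAG with its variant ACAATG and as TCAAAG with its variant TCAATG. *Gjc3* lies on chromosome 5 (137953461 to 137963098, minus strand) and its run is chr5:137963099-137963348. *Gjb1* lies on chromosome X (101376378 to 101385629, plus strand) and its run, before the most downstream of its starts, is chrX:101383482-101383731. *Gja1* lies on chromosome 10 (56377330 to 56402513, plus strand) and its run is chr10:56377050-56377299.
Gjc3: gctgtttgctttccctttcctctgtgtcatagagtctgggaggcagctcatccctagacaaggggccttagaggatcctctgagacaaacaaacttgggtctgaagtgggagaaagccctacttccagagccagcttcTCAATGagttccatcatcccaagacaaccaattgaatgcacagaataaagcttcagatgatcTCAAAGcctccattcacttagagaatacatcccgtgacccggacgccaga
Gjb1: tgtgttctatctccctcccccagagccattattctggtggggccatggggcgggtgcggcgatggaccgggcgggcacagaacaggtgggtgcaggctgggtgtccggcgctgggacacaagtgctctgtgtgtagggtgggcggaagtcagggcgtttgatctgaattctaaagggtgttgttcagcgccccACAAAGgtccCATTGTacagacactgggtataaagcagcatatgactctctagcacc
Gja1: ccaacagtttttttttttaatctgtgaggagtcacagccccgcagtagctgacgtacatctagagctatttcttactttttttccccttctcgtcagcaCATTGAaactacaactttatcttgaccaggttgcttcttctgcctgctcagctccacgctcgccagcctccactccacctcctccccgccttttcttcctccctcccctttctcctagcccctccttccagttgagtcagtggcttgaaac
The *Gjc3* run held 2 matches, which begin 112 and 50 bases before the start. The *Gjb1* run also held 2, which begin 57 and 47 bases before the start, and the *Gja1* run held 1, 151 bases before it. These letters were found in 39.4% of 32817 mouse start regions of the same length, so that a match is common. The letters TGANTCA, the core of AP-1 sites, occurred once in the *Gja1* run and in none of the other member runs, against 6.75% of all start regions. Of the reads that Salmon assigned to *Gjb1*, the transcript Gjb1-203, whose first base at 101383736 lies next to the run shown, took 74.0% in GL261 neurosphere, 54.4% in GL261 adherent, 91.9% in GL261 bulk and all 213 in CT2A bulk libraries. It took 0 of the 6 reads in CT2A neurosphere and 0 of the 1 in CT2A adherent libraries, all of which went to a longer transcript that begins at 101376378. The proximal start of Gjb1-203 is known from rodents as the one used in nerve and oligodendrocytes. Transcripts of *Gjb1* share their coding exon, so these shares are estimates.

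Each line had its own connexin repertoire. Summed over the 20 connexins, TPM, which are also scaled to transcript length, came to 189 ± 66.3 in CT2A and 505 ± 29.3 in GL261 neurosphere libraries (SD, n = 5 and 3), to 208 ± 0.685 in CT2A and 562 ± 129 in GL261 adherent libraries (n = 3 and 4), and to 267 ± 7.18 in CT2A and 447.0 ± 45.8 in GL261 bulk tumors (n = 4 each). In CT2A cells the leading connexin was *Gja1*, with 58.4 ± 8.17% of this sum in neurosphere and 59.9 ± 4.84% in adherent libraries. *Gjc1* took 19.2 ± 12.3% and 13.2 ± 1.34%. Replicate 59 widened the spread of the CT2A neurosphere libraries, with a sum of 73.6 TPM, of which *Gja1* took 44.1% and *Gjc1* 41.1%. In GL261 cells *Gjc3* alone took 79.0 ± 2.74% of the sum in neurosphere and 85.2 ± 3.78% in adherent libraries, and *Gja1* took 16.5 ± 2.83% and 9.45 ± 3.17%. Connexins with a mean above 1 TPM numbered 4 in CT2A and 8 in GL261 neurosphere libraries, and 6 and 7 in adherent libraries. Some lay near this cut or were uneven between libraries. In GL261 neurosphere libraries *Gjd3* averaged 1.01 TPM from 11 reads and *Gja5* 1.06 TPM. In GL261 adherent libraries *Gjb6* ranged from 0 to 8.22 TPM and *Gja5* from 0 to 2.84 TPM. In CT2A adherent libraries *Gja4* averaged 1.31 TPM. Bulk tumors held more connexins above 1 TPM, 10 in CT2A and 9 in GL261 tumors. Among them *Gjb6* took 10.1 ± 6.57% of the sum in CT2A and 6.64 ± 5.68% in GL261 tumors.

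**Figure D1:**
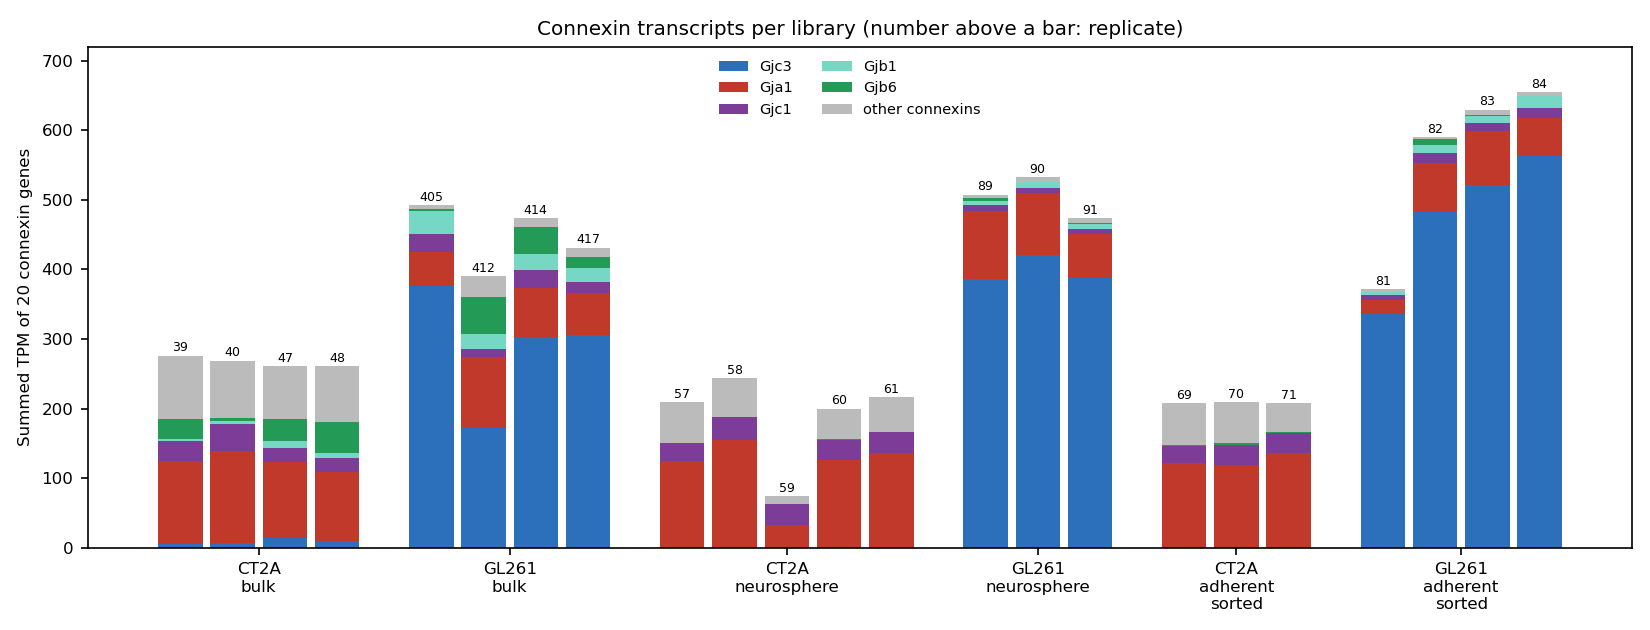
Summed TPM of the 20 connexin genes in each of the 23 libraries, stacked by gene, with libraries grouped by line and source and CT2A left of GL261. *Gjc3* is the largest part of every GL261 bar (44.1% or more) and *Gja1* that of every CT2A bar (37.7% or more), and CT2A neurosphere replicate 59 has the lowest sum, 73.6 TPM.

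Counts of members past the threshold (adjusted p under 0.05 in edgeR's quasi-likelihood test over all genes tested) describe the choice of members and are read no further. In bulk tumors 7 members passed the minimum count of 10 normalized reads and 2 were past the threshold, both lower in CT2A, where 24.0% of all genes tested were past it. In neurosphere-derived cells 5 members passed the minimum and 4 were past the threshold, 1 higher and 3 lower in CT2A, where 60.0% of all genes were. In adherent-line cells 6 members passed the minimum and 4 were past the threshold, 2 higher and 2 lower in CT2A, where 50.5% of all genes were. Between neurosphere-derived and adherent-line GL261 cells none of 6 members was past the threshold, where 8.50% of all genes were, and between neurosphere-derived and adherent-line CT2A cells none of 3, where 0.335% were. In each of these last comparisons 1 member had an unadjusted p under 0.05, and DESeq2 also gave 0. The line comparisons share no library with each other, but the culture comparisons use the same neurosphere and adherent libraries as them.

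*Gjc3* (Cx29), a connexin of myelinating glia, was the most abundant connexin of GL261 and was nearly absent from CT2A cells. In neurosphere libraries *Gjc3* was at 0.653, 0.467, 0.764, 1.29 and 0.296 CPM in CT2A cells, against 1071, 1094 and 946 CPM in GL261 cells. In adherent libraries it was at 1.61, 3.0 and 1.73 CPM in CT2A cells, against 999.5, 1135, 1207 and 1322 CPM in GL261 cells. Every GL261 library lay far above every CT2A library in both cultures. In bulk tumors *Gjc3* was at 8.84, 12.0, 28.9 and 19.3 CPM in CT2A tumors, against 829.9, 334, 551 and 617 CPM in GL261 tumors. The log2 fold change of CT2A over GL261 was -10.48 ± 0.28 (SE) in neurosphere, -9.17 ± 0.29 in adherent and -5.11 ± 0.46 in bulk libraries. In order of level, GL261 adherent and GL261 neurosphere libraries overlapped, and each later group, GL261 bulk, CT2A bulk, CT2A adherent and CT2A neurosphere, lay wholly below the one before it.

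*Gjb1* (Cx32), which couples oligodendrocytes and Schwann cells and is mutated in a form of Charcot-Marie-Tooth disease, had the same side at far lower level. In CT2A cells it had 6 reads in the 5 neurosphere libraries together and 1 read in the 3 adherent libraries. In GL261 cells it was at 5.83, 6.92 and 6.82 CPM in neurosphere libraries and at 5.85, 10.5, 9.31 and 14.3 CPM in adherent libraries. Pooled reads gave a ratio of GL261 over CT2A of 60.7 in neurosphere libraries (95% exact interval 27.3 to 168) and of 264 in adherent libraries (47.2 to 10472); both intervals cover counting error only. In bulk tumors *Gjb1* was at 1.58, 4.18, 8.20 and 5.82 CPM in CT2A tumors, against 29.6, 17.8, 16.9 and 16.3 CPM in GL261 tumors, with a log2 fold change of -2.04 ± 0.44 (SE), or -1.76 without GL261 replicate 405. No CT2A library reached a GL261 library in any of these pairs.

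**Figure D2:**
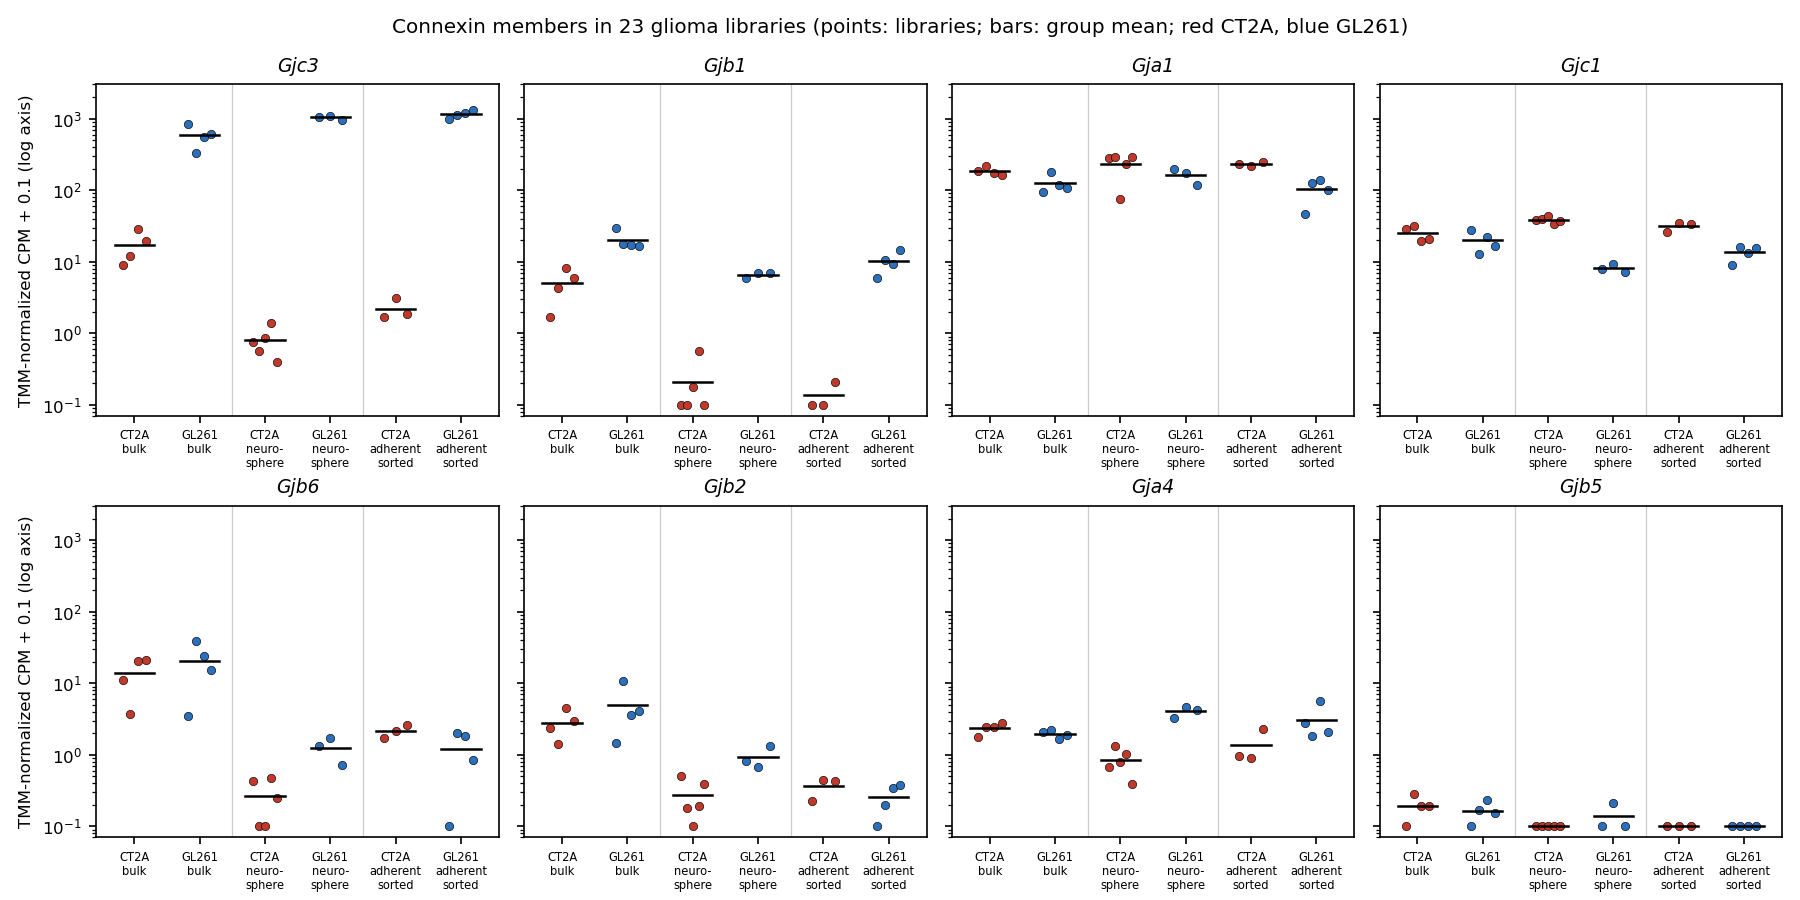
TMM-normalized CPM plus 0.1 on a log axis for the 8 members in the 23 libraries (points) with group means (bars), CT2A in red left of GL261 in blue. *Gjc3* and *Gjb1* separate the lines in all pairs, *Gjc1* separates them in the neurosphere and adherent pairs, *Gjb6* and *Gjb2* are highest in bulk tumors and *Gjb5* stays at the bottom of the axis throughout.

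Most markers of the oligodendrocyte lineage, though not all, were on the same side as these connexins, and their part in the result was not tested. The 5 progenitor markers summed to 317 to 461 CPM in CT2A and 1266 to 1555 CPM in GL261 neurosphere libraries, and to 375 to 448 CPM in CT2A and 1959 to 2623 CPM in GL261 adherent libraries. All 5 were above 1 CPM in both GL261 groups, whereas in CT2A 2 were in neurosphere and 3 in adherent libraries. *Sox10*, the transcription factor of the lineage, was at 0 to 0.156 CPM in CT2A and 576 to 705 CPM in GL261 neurosphere libraries, and at 0.461 to 0.867 CPM in CT2A and 779 to 1158 CPM in GL261 adherent libraries. *Olig1* and *Olig2*, the other transcription factors of the list, were on the same side as *Sox10*, at most 3.57 CPM in CT2A and at least 116 CPM in GL261 libraries of selected cells. The growth factor receptor gene *Pdgfra* was on the opposite side, at 165 to 277 CPM in CT2A and 46.0 to 110 CPM in GL261 neurosphere libraries, and at 197 to 218 CPM in CT2A and 50.3 to 108 CPM in GL261 adherent libraries. The proteoglycan gene *Cspg4* overlapped between the lines, at 73.9 to 207 CPM in CT2A and 172 to 213 CPM in GL261 neurosphere libraries, and at 174 to 227 CPM in CT2A and 222 to 433 CPM in GL261 adherent libraries. The 7 mature markers summed to 29.6 to 311 CPM in CT2A and 502 to 584 CPM in GL261 neurosphere libraries, and to 245 to 362 CPM in CT2A and 516 to 995 CPM in GL261 adherent libraries. Among them *Mog*, a surface protein of myelin, was at 0 to 0.647 CPM in CT2A and 27.3 to 33.4 CPM in GL261 neurosphere libraries, and at 0.108 to 0.124 CPM in CT2A and 28.8 to 39.6 CPM in GL261 adherent libraries.

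Bulk tumors add the surrounding brain, and in them fewer cells of a type and less RNA per cell cannot be told apart. Within CT2A bulk tumors, *Gjc3* and *Gjb1* both had the order of the mature oligodendrocyte markers, which summed to 818, 1294, 2572 and 2090 CPM in replicates 39, 40, 47 and 48. In GL261 bulk tumors these markers were lowest in replicate 405, at 910 CPM, and highest in replicate 412, at 4710 CPM. *Gjc3* had the reverse order at these ends, 829.9 CPM in replicate 405 and 334 CPM in replicate 412. *Gjb1* was also higher in replicate 405, at 29.6 CPM, than in replicate 412, at 17.8 CPM.

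*Gja1* (Cx43), the connexin of astrocytes and many other cells, was expressed in every library and was the highest connexin of CT2A. In neurosphere libraries *Gja1* was at 282, 291, 74.4, 232 and 293 CPM in CT2A cells, against 197, 176 and 120.0 CPM in GL261 cells. Only CT2A replicate 59, at 74.4 CPM, lay inside or below the GL261 range. In adherent libraries it was at 234, 219 and 245 CPM in CT2A cells, against 47.1, 125, 140 and 99.9 CPM in GL261 cells. Here the groups did not overlap, and GL261 replicate 81 was the lowest. In bulk tumors it was at 186, 214, 174 and 161 CPM in CT2A tumors, against 94.0, 181, 118 and 109 CPM in GL261 tumors, where GL261 replicate 412 lay within the CT2A range. The log2 fold change of CT2A over GL261 was 0.51 ± 0.41 (SE) in neurosphere, 1.11 ± 0.31 in adherent and 0.59 ± 0.21 in bulk libraries. Leaving out CT2A neurosphere replicate 59 gave 0.74, leaving out GL261 adherent replicate 81 gave 0.89, and in bulk tumors leaving out GL261 replicate 405 or 412 gave 0.49 or 0.78.

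*Gjc1* (Cx45) was higher in CT2A cells in both cultures. In neurosphere libraries it was at 37.8, 39.0, 44.2, 33.8 and 37.5 CPM in CT2A cells, against 7.77, 9.34 and 7.06 CPM in GL261 cells. In adherent libraries it was at 25.9, 35.2 and 33.4 CPM in CT2A cells, against 8.77, 16.0, 13.2 and 15.5 CPM in GL261 cells. The groups did not overlap in either culture, and replicate 59, low for *Gja1*, had the highest *Gjc1* of its group. In bulk tumors *Gjc1* was at 28.7, 32.0, 19.4 and 20.8 CPM in CT2A tumors, against 28.0, 12.6, 22.1 and 16.7 CPM in GL261 tumors, and the groups overlapped. The log2 fold change was 2.25 ± 0.16 (SE) in neurosphere, 1.17 ± 0.23 in adherent and 0.37 ± 0.32 in bulk libraries. The 6 markers of pericytes and smooth muscle, cells known for Cx45, were summed. In neurosphere libraries the sums were 30.8 to 63.8 CPM in CT2A and 152 to 186 CPM in GL261 cells. In adherent libraries they were 65.4 to 78.6 CPM in CT2A and 35.0 to 115 CPM in GL261 cells. The sums lay on the other side from *Gjc1* in neurosphere libraries and overlapped in adherent libraries, and their part was not tested.

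*Gjb6* (Cx30), the connexin of mature astrocytes, and *Gjb2* (Cx26) were mainly connexins of the bulk tumors. *Gjb6* was at 11.1, 3.62, 20.2 and 21.0 CPM in CT2A bulk tumors, against 3.38, 38.9, 23.8 and 15.4 CPM in GL261 bulk tumors. In selected cells it was at 0 to 0.370 CPM in CT2A and 0.609 to 1.61 CPM in GL261 neurosphere libraries, and at 1.61 to 2.49 CPM in CT2A and 0 to 1.90 CPM in GL261 adherent libraries. *Gjb2* was at 2.23, 1.3, 4.38 and 2.86 CPM in CT2A bulk tumors, against 1.36, 10.6, 3.46 and 3.93 CPM in GL261 bulk tumors, and it was below 1.3 CPM in every library of selected cells. For both genes the lines overlapped in bulk tumors. The log2 fold changes there were -0.53 ± 0.69 (SE) for *Gjb6* and -0.82 ± 0.59 for *Gjb2*. The astrocyte markers, all 6 above 1 CPM in both bulk groups, summed to 1001, 808, 1954 and 1940 CPM in CT2A replicates 39, 40, 47 and 48, against 549, 3005, 1627 and 1484 CPM in GL261 replicates 405, 412, 414 and 417. *Gjb6* was lowest in the bulk tumor with the lowest sum in each line, replicates 40 and 405. The 6 neuronal markers, which summed to 1107, 323, 1412 and 1985 CPM in CT2A replicates 39, 40, 47 and 48, against 123, 2437, 1546 and 911 CPM in GL261 replicates 405, 412, 414 and 417, had the order of *Gjb6* in both lines. The part of these cells in the levels was not tested.

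**Figure D3:**
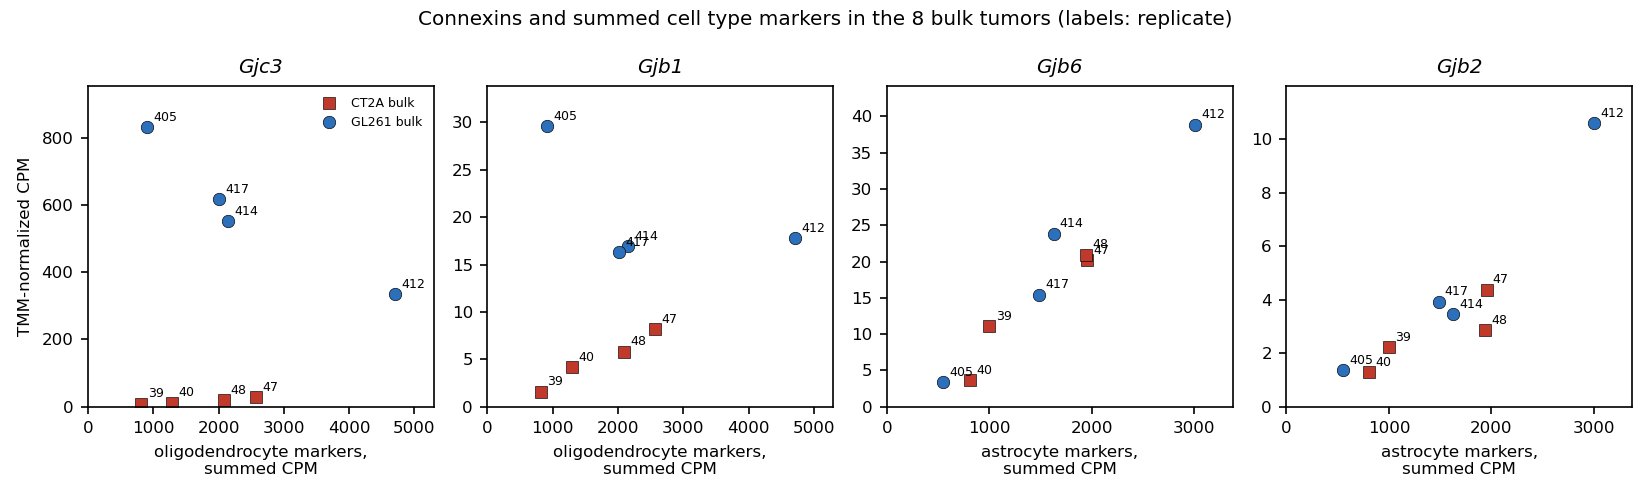
TMM-normalized CPM of 4 connexins against the summed CPM of oligodendrocyte or astrocyte markers in the 8 bulk tumors, CT2A as squares and GL261 as circles, with replicate numbers. *Gjb6* and *Gjb2* are highest in GL261 replicate 412, which has the highest marker sums, whereas *Gjc3* is lowest there among the GL261 tumors.

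*Gja4* (Cx37), an endothelial connexin, was low in every group. It was at 0.571, 1.25, 0.688, 0.924 and 0.296 CPM in CT2A neurosphere libraries, against 3.16, 4.61 and 4.14 CPM in GL261 neurosphere libraries. These groups did not overlap (log2 fold change -2.36 ± 0.42, SE). In adherent libraries the groups overlapped, with 0.867, 0.807 and 2.16 CPM in CT2A and 2.71, 1.70, 5.59 and 1.97 CPM in GL261 cells, and so they did in bulk tumors, with 1.68 to 2.68 CPM in CT2A and 1.56 to 2.12 CPM in GL261 tumors. The arterial connexin *Gja5* (Cx40), outside the members, was also lower in CT2A neurosphere libraries, at 0.396 ± 0.275 CPM against 2.11 ± 0.615 CPM in GL261 (SD, n = 5 and 3; log2 fold change -2.46 ± 0.67, SE; edgeR adjusted p = 0.0094). Its reads are uncertain, since another gene overlaps it on the opposite strand. The 7 endothelial markers, all above 1 CPM in every group, summed to 34.5 to 106 CPM in CT2A and 181 to 241 CPM in GL261 neurosphere libraries, and to 84.9 to 124 CPM in CT2A and 58.9 to 252 CPM in GL261 adherent libraries, and their part was not tested.

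*Gjb5* (Cx31.1; chromosome 4, 127354809 to 127358181, GRCm38) was close to absent. It had 0 reads in all 8 CT2A libraries of selected cells and in 6 of 7 from GL261, with 4 reads in the CT2A and 10 in the GL261 bulk tumors together. No level can be given for it at this depth, since every library was at 5 reads or fewer.

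Culture as neurospheres before implantation was compared with adherent culture in each line. In GL261 cells the 6 members that passed the minimum overlapped between cultures, with log2 fold changes of neurosphere over adherent of 0.68 ± 0.35 (SE) for *Gja1*, -0.73 ± 0.26 for *Gjc1*, -0.61 ± 0.31 for *Gjb1* and -0.17 ± 0.15 for *Gjc3*. Without GL261 adherent replicate 81 the values were 0.46 for *Gja1*, -0.86 for *Gjc1*, -0.78 for *Gjb1* and -0.21 for *Gjc3*. The macrophage and microglia markers summed to 4081 to 6632 CPM in GL261 neurosphere and 178 to 959 CPM in GL261 adherent libraries. Their part was not tested. In CT2A cells *Gja1* (log2 fold change 0.00 ± 0.37) and *Gjc1* (0.28 ± 0.14) overlapped between cultures. *Gjc3*, at 0.296 to 1.29 CPM in neurosphere and 1.61 to 3.0 CPM in adherent CT2A libraries, did not overlap (-1.57 ± 0.47), beside mature oligodendrocyte markers of 29.6 to 311 CPM in neurosphere and 245 to 362 CPM in adherent libraries.

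Of the 12 connexins outside the members, 5 passed the minimum count in bulk tumors, 3 in neurosphere and 2 in adherent libraries of the line comparisons. The neuronal connexin *Gjd2* (Cx36) had 0 reads in every library of selected cells and 0.745 to 2.33 CPM in CT2A and 0.146 to 4.74 CPM in GL261 bulk tumors (edgeR adjusted p = 0.90). Pannexins, a separate family of large-pore membrane channels, were also measured. *Panx1*, the ATP-release channel, was lower in CT2A in both cultures. In neurosphere libraries *Panx1* was at 3.84, 5.68, 6.80, 5.92 and 3.4 CPM in CT2A cells, against 27.1, 21.0 and 14.1 CPM in GL261 cells (log2 fold change -2.01 ± 0.28, SE; edgeR adjusted p = 1.5e-04). In adherent libraries it was at 8.55, 5.77 and 7.58 CPM in CT2A cells, against 16.5, 10.9, 13.5 and 16.1 CPM in GL261 cells (-1.03 ± 0.24; edgeR adjusted p = 0.0074). The groups did not overlap in either culture. *Panx1* is also expressed by macrophages, whose markers summed to 449 to 2451 CPM in CT2A and 4081 to 6632 CPM in GL261 neurosphere libraries, and to 644 to 1213 CPM in CT2A and 178 to 959 CPM in GL261 adherent libraries, and their part was not tested. In bulk tumors *Panx1* averaged 10.4 CPM in CT2A and 10.9 CPM in GL261 tumors (log2 fold change -0.06 ± 0.33, SE; edgeR adjusted p = 0.93). *Panx2*, a brain pannexin, was at 8.64 to 32.5 CPM in CT2A and 2.36 to 49.3 CPM in GL261 bulk tumors, and was not past the threshold in any comparison in which it was tested, though between the CT2A cultures it passed without neurosphere replicate 60 (log2 fold change of neurosphere over adherent -3.64, against -2.70 with it).

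Of the proteins that bind, traffic or modify connexins, all 14 were tested in each line comparison, and their counts are read beside those of all genes. In neurosphere libraries 6 of them were past the threshold on the CT2A side and 1 on the GL261 side, where 4341 and 3910 of all 13742 genes tested were, with a median log2 fold change of 0.29 against 0.07 over all genes. In adherent libraries 8 were past it on the CT2A side and 1 on the GL261 side, where 3222 and 3737 of 13792 genes were, with a median of 0.65 against -0.03. In bulk tumors 5 were past it on the CT2A side and none on the GL261 side, where 1574 and 2371 of 16451 genes were, with a median of 0.36 against -0.12. *Dbn1* (drebrin), an actin-binding protein that holds Cx43 at the membrane, differed most. It was at 236, 284, 169.6, 245 and 272 CPM in CT2A and 14.7, 21.8 and 24.7 CPM in GL261 neurosphere libraries, and at 228, 233 and 230.3 CPM in CT2A and 28.7, 25.3, 26.8 and 33.9 CPM in GL261 adherent libraries. Its log2 fold change was 3.56 ± 0.24 in neurosphere and 2.94 ± 0.14 in adherent libraries (SE; edgeR adjusted p = 1.5e-06 and 1.8e-06).

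*Ubqln4*, a ubiquilin that binds Cx43, was higher in CT2A in all 3 pairs, with log2 fold changes of 1.56 ± 0.15 in neurosphere, 1.51 ± 0.14 in adherent and 0.72 ± 0.15 in bulk libraries (SE; edgeR adjusted p = 1.2e-05, 6.0e-05 and 0.0093). *Cdh2*, N-cadherin of adherens junctions, was higher in CT2A neurosphere libraries by 1.83 ± 0.13 on the log2 scale (edgeR adjusted p = 2.1e-06), and *Dlg1*, a junction scaffold, was higher in CT2A adherent libraries by 1.18 ± 0.15 (edgeR adjusted p = 3.3e-04). In bulk tumors *Cav1* (caveolin-1) was higher in CT2A by 0.98 ± 0.18 on the log2 scale (edgeR adjusted p = 0.0054). In adherent libraries *Cav1* was higher by 1.02 ± 0.29 (edgeR adjusted p = 0.017), a call lost without CT2A replicate 69 or 70. In neurosphere libraries *Cav1* overlapped between the lines (-0.03 ± 0.19, edgeR adjusted p = 0.90). *Nedd4*, a ubiquitin ligase of Cx43, was lower in CT2A selected cells, with log2 fold changes of -0.40 ± 0.14 in neurosphere and -0.65 ± 0.13 in adherent libraries (SE; edgeR adjusted p = 0.032 and 0.0029). In bulk tumors *Nedd4* was not past the threshold (-0.40 ± 0.17; edgeR adjusted p = 0.13), though it passed with all 6 groups in 1 fit (-0.42). The neurosphere call of *Nedd4* was lost without GL261 replicate 90 or 91 or CT2A replicate 61 (log2 fold changes -0.39, -0.37 and -0.41) and with no minimum count (-0.40; edgeR adjusted p = 0.051, with 0.084, 0.082 and 0.054 for the replicates). Between neurosphere and adherent GL261 cells the chaperone *Erp29* was higher (1.03 ± 0.15; edgeR adjusted p = 0.0083) and the scaffold *Tjp1* (ZO-1) lower (-0.75 ± 0.15; edgeR adjusted p = 0.021), both named after their values were seen. *Tjp1* was lost without GL261 adherent replicate 84 or any 1 neurosphere replicate (-0.62 to -0.79). Of the 1162 genes past the threshold between these GL261 cultures, 1013 were higher in neurosphere libraries. Macrophage and microglia markers summed to 4081 to 6632 CPM in GL261 neurosphere and 178 to 959 CPM in GL261 adherent libraries, and their part was not tested. Between the CT2A cultures none of the 14 was past the threshold by edgeR or by DESeq2, with 2 at an unadjusted p under 0.05.

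**Figure D4:**
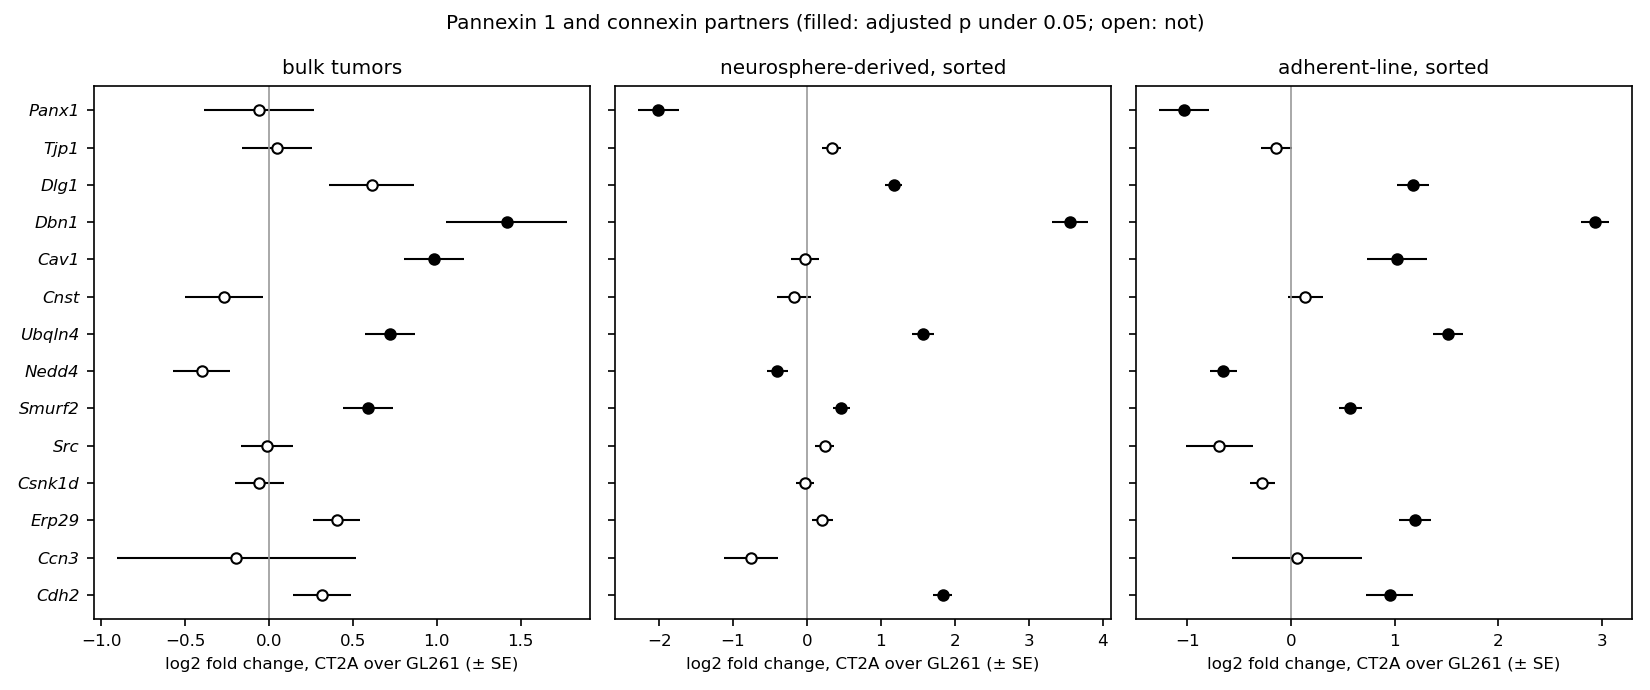
Log2 fold change of CT2A over GL261 with its SE for *Panx1* and connexin partners in bulk tumors, neurosphere-derived cells and adherent-line cells (filled points past the threshold of the edgeR test). *Dbn1* lies farthest to the right in all 3 panels, and *Panx1* lies left of 0 in both panels of selected cells; the horizontal scales differ between panels.

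Genes whose pattern over the 23 libraries was most like that of a member were ranked by Pearson r of log2(CPM + 1) among 12481 genes with a mean of at least 10 CPM in some group. Such r values are a description: libraries of a line share most of their differences, and they also share depth and source. For *Gjc3* the first were *Sox6* (r = 0.996), *Myo5b* (0.995) and *Moxd1* (0.994). For *Gjb1* they were *Sec14l5* (0.980), *Bex1* (0.978) and *Tmem88b* (0.977). For *Gjc1* they were *Sae1* (0.940), *Sephs1* (0.933) and *Msh3* (0.933), and for *Gja1* *Polk* (0.890), *Mplkip* (0.886) and *Acaa2* (0.881). *Gja4* was most like the endothelial genes *Pecam1* (0.889), *Tek* (0.869) and *Mmrn2* (0.864). *Gjb6* was most like *Dab1* (0.989), *Rasgef1a* (0.986) and *Fam81a* (0.984), and *Gjb2* like *Pcdh8* (0.966), *Gpr27* (0.961) and *Pdyn* (0.960). *Gjb5* was too low to rank.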

How the data were processed

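RNA was sequenced from 23 *ex vivo* tumors, grouped by the cell line, selection and culture labels. Salmon, run by the authors on the mm10 (GRCm38) transcript set, gave the deposited estimated counts per transcript, which are not normalized, and the deposited TPM, scaled to length and depth. For bulk and adherent libraries the authors also deposited expected counts per gene, made with STAR 2.7.7a and RSEM 1.3.3. Labels and design text name different library kits for the selected cells; whether counting used strand is not given in the sources used here.

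Estimated counts of 116546 transcripts were summed per gene (35576 genes) and rounded. Transcripts without a gene, 180, held 0.0413 to 0.152% of reads and were left out. Each comparison used only its own groups in edgeR 4.0.16 (R 4.3.3; quasi-likelihood test, TMM, robust dispersion) on genes with a mean normalized count above 10, with Benjamini-Hochberg adjustment over all genes tested and a threshold of 0.05. Each SE is the log2 fold change over the root of its F. Each p-value sets the group difference against the spread between these libraries, which was estimated with information from all genes tested. Levels are TMM-normalized CPM over all 23 libraries, and TPM where connexins are compared. Ratios of pooled reads have exact conditional 95% intervals, which cover counting error only. No 2 libraries of the same group agreed within sampling noise, and pairs from different groups were not checked.

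All members are named, and other connexins and pannexins past the minimum count may be; of the 14 partners, up to 3 with the smallest p on each side of each line comparison. Members and lists were chosen with earlier results of these data known. Alternatives were DESeq2 1.42.0, edgeR with DESeq2's size factors, the minimum count dropped or set by filterByExpr, 1 fit of all 6 groups, RSEM expected counts, each library left out, TPM in place of CPM for levels, and Spearman or log2(CPM + 0.1) for likeness. Simulated counts with known changes in a small part of the genes were run through the fits. Many more genes differed in the line comparisons, so these runs do not cover them, and no result here rests on these runs. Coordinates are those of GENCODE vM21 (GRCm38), and start regions are RefSeq's. Python 3.11.15 was used for levels and intervals (pandas 2.3.3, scipy 1.17.1) and for drawing (matplotlib 3.10.9). Exome and protein data were not analysed here, and results for some listed genes are not reported here.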

Additional observations from a re-analysis of the deposited data

Results flagged for a closer look

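In groups of 4 or 5 libraries, 15 connexins and pannexins were checked in 43 gene and group sets for a library whose gap to its nearest fellow took most of the group's range (sets with a highest library of at least 10 reads). Chance flags about 1 set in 20, and 4 of the 43 stood out. *Gja1* was at 74.4 CPM in CT2A neurosphere replicate 59, where the next lowest library was at 231.5 CPM. *Gjb1* was at 29.6 CPM in GL261 bulk replicate 405, where the next highest was at 17.8 CPM. *Gja5* was at 1.11 CPM in CT2A bulk replicate 48, where the next highest was at 0.559 CPM, and *Panx2* was at 0.924 CPM in CT2A neurosphere replicate 60, where the next highest was at 0.296 CPM. No gene checked lay wholly on opposite sides in any pair of the line comparisons or in the culture comparisons.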

How the results depend on the processing

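Of the members' log2 fold changes, 147 of 148 under the alternatives moved by less than the SD between replicates. With a library left out, 193 of 201 did. Reversal was counted only for members past the threshold in the report's test, and none of those reversed. Members not past it could change sign: *Gjb6*, GL261 neurosphere over adherent, went from 0.08 to -0.31 without adherent replicate 81. *Gja1* in bulk tumors had a log2 fold change of 0.64 with DESeq2 or its size factors, and *Gja4* in adherent libraries one of -1.20 with all groups in 1 fit. In GL261, neurosphere over adherent, DESeq2 gave 4 partner, pannexin and other connexin calls and 1873 of all genes, against 2 and 1162 in the report's test, and the fit of all 6 groups gave 4. In CT2A, neurosphere over adherent, DESeq2 gave 302 genes and no minimum count 87, against 44. With each library left out, genes past the threshold ranged from 2570 to 4638 in bulk tumors (lowest without GL261 replicate 414, and 2605 without CT2A replicate 39, against 3945), from 300 to 2437 between GL261 cultures (highest without adherent replicate 81, lowest without neurosphere replicate 89; replicates 82, 84, 90 and 91 gave 772, 444, 448 and 761) and from 0 to 188 between CT2A cultures (0 without 57, 61, 70 or 71, 12 without 58, 13 without 69 and 188 without 60). Members past it ranged from 0 to 2 between GL261 cultures, other listed genes from 1 to 3 (1 without 84, 89, 90 or 91) and, between CT2A cultures, from 0 to 1 (*Panx2* without 60). The cause of these shifts was not tested. *Dbn1* in bulk tumors was lost without CT2A replicate 39 or 40 or GL261 replicate 417 (log2 fold changes 1.33, 1.36 and 1.38). With Spearman's rho none of the 3 genes most like *Gja1*, *Gja4*, *Gjb2* or *Gjb6* stayed among the first 3. Over both alternatives for likeness and all members ranked, 8 of 14 checks kept fewer than 2 of the 3 genes. By TPM the mean ratio for *Gjb6* in adherent libraries was -0.62 (log2), against 0.91 by CPM. No paired analysis was possible because the groups share no replicate numbers. Depth of 7384590 reads or more leaves *Gjb5* undetermined in selected cells.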
